A study of Homo sapiens with 2 samples.

Results

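The clustered histone genes are the replication-dependent histone genes, which supply the linker histone H1 and the core histones H2A, H2B, H3 and H4 while DNA is being copied. They were taken from the expression table as the genes named H1-1 to H1-6 or with symbols of the H2AC, H2BC, H3C and H4C series, which gave 61 of 16654 genes. By class there were 4 genes for H1, 16 for H2A, 16 for H2B, 12 for H3 and 13 for H4. RefSeq placed 47 of them on chromosome 6, 10 on chromosome 1, a further 2 (H2AC25 and H2BC26) elsewhere on chromosome 1, H4C16 on chromosome 12 and H2BC12L on chromosome 21. H2BC12L was taken by its symbol although it lies apart from the clusters. The values came from HUCCT-1 cells, a long-established line derived from a human intrahepatic cholangiocarcinoma. One library was made after 48 h with XY101 at 5 µM, a small-molecule antagonist of the nuclear receptor RORγ, and the other after 48 h with vehicle (titled Con2). The RNA of both was poly(A)-selected, and GSK805, another antagonist named in the protocol, was not analysed here. Each condition had 1 library and so no replicate check. No p-value or standard deviation was therefore given, and every difference describes these 2 libraries.

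Each nucleosome wraps DNA around pairs of H2A, H2B, H3 and H4, and H1 binds the linker DNA between nucleosomes. The mRNAs of the clustered genes are unusual in that they normally end in a short stem-loop and carry no poly(A) tail. SLBP binds the stem-loop, the U7 snRNP (with LSM10 and LSM11) directs the cut behind it, and NPAT activates transcription of the genes at nuclear histone locus bodies. Replacement histones such as H3.3 and H2A.Z are made outside S phase as well, from genes with ordinary polyadenylated mRNAs. Poly(A) selection therefore records mainly those copies of a clustered histone mRNA that do carry a tail. Whether a difference below lay in total histone mRNA or in its polyadenylated share cannot be told apart in these libraries. Likewise, more cells in S phase and more RNA per cell cannot be told apart in bulk RNA.

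The stem-loop is shown because these mRNAs normally end in it, and transcripts of the replacement histones were not searched for it. It was looked for in the last 100 bases of each transcript in GENCODE release 44 (GRCh37), which held transcripts of 57 of the 61 genes. A word of 16 bases that differed from the commonest spelling at no more than 3 positions was found in 55 of the 57, in 9 spellings, and in 53 of them all positions of the stem could pair. Capitals mark the 2 arms of the stem, and lower case the loop between them.
Most H1, H2A, H2B and H3 genes: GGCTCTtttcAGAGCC
Most H4 genes: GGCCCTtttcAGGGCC
H2BC12, H2BC5, H2BC4: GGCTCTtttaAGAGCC
H4C14, H4C15, H4C12: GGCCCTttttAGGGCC
The first spelling was that of 33 genes and of no H4 gene, the second that of 7 H4 genes, the third that of 6 genes and the fourth that of 4 H4 genes. In the H4 spellings both arms differ from the first at the same pairing position, so that the stem still pairs. The genes H2BC21 and H2BC12L, both of the H2B class, lacked the word in these last 100 bases. The only transcript given for H2BC21 was 2224 bases long, and a stem-loop further upstream in it was not looked for. The polyadenylation signal AATAAA lay in the last 50 bases of a transcript for 15 of the 57 genes, among them H2AC6, H2BC5, H2BC9, H2BC21, H4C11, H4C14 and H4C15. It was not found there for H1-2 or H2BC12, which were abundant, but was found for H2BC26, listed at 0 in both libraries. Transcripts of other genes were not searched for AATAAA.

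Promoters of genes with high values are shown because most of these members were higher together with XY101, whereas H2AC25 differed little. H4C11 and H4C12 are also among the 11 members with the highest mean but are not printed. Their summed log2 ratio was 0.37, and its counting interval, given below, included 0. RefSeq windows (GRCh38.p14) were given for 55 of the 61 genes, and the 150 bases before each annotated start are printed. Capitals mark 3 motifs on either strand, namely CCAAT (bound by NF-Y), the TATA box TATAAA, and the octamer ATTTGCAT (bound by OCT1, the product of POU2F1).
H1-2: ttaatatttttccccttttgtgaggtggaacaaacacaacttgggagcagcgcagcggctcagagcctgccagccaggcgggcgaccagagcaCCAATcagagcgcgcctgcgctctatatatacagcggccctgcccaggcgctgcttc
H2AC6: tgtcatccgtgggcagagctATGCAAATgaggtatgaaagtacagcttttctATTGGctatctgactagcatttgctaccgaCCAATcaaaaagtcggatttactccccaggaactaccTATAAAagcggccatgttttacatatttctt
H2AC18: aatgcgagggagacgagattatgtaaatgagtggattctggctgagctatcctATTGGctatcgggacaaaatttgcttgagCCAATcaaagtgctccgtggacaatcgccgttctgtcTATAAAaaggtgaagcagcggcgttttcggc
H2BC5: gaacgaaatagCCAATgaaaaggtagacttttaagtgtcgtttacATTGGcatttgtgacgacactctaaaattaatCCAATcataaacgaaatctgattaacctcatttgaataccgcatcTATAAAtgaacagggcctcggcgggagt
H2BC12: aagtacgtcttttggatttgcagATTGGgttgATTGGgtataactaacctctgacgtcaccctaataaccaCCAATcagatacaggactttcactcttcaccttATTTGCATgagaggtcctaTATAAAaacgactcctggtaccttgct
H4C14: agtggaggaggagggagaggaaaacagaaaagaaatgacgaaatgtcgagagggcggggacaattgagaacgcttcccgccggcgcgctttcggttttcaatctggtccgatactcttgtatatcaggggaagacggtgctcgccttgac
H2AC25: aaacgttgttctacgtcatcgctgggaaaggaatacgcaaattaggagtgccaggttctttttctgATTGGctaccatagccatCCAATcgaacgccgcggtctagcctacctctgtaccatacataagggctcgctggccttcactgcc
The stretch before H1-2 is chr6:26056471-26056620 on the minus strand, and that before H2AC6 is chr6:26124022-26124171 on the plus strand. For H2AC18 it is chr1:149842751-149842900 on the minus strand, for H2BC5 chr6:26157971-26158120 on the plus strand and for H2BC12 chr6:27146859-27147008 on the minus strand. For H4C14 it is chr1:149832507-149832656 on the plus strand, and for H2AC25 chr1:228457874-228458023 on the minus strand. The CCAAT element was found within 250 bases before to 50 after the start in 83.6% of the 55 genes and in 35.7% of 27305 promoters of the same length. All 4 H1, 15 H2A, 15 H2B and 10 H3 windows held it, but only 2 of 11 H4 windows did. TATAAA was found in 65.5% of the histone windows and in 11.95% of all windows. The octamer was found in 73.3% of H2B and 66.7% of H2A windows, against 1.80% of all windows, and in none of the 4 H1 or 11 H4 windows. Many H2A and H2B genes lie head to head with starts 194 to 248 bases apart, so their windows overlap. The same site can therefore be counted for both partners, and these shares are not of separate stretches. H2AC25, whose level barely differed between the libraries, held CCAAT but neither TATAAA nor the octamer. H4C14, which was higher with XY101, held none of the 3 motifs. A link between the motifs and the levels was not tested. The windows of H4C14 and H4C15 were identical over 300 bases. Those of H2AC18 and H2AC19 were identical over 299 bases once their annotated starts, 1 base apart, were aligned, and those of H4C11 and H4C12 agreed at 295 of 300 positions. A match is a description of the letters and says nothing of whether a factor was bound.

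Both libraries recorded mRNA of a similar breadth, with 14719 genes above 0 FPKM in the XY101 library and 14666 in the vehicle library. FPKM is the number of fragments scaled to transcript length and to the mapped fragments of the library. The spacing of low FPKM values gave an approximate depth of 17500000 fragments for each library. Ductal keratins were abundant (KRT7 had 4185 FPKM with XY101 and 5080 FPKM with vehicle), whereas the leukocyte marker PTPRC and the hepatocyte marker AFP were at or near 0 in both. Other markers of these lists were present, with SERPINA1 (hepatocyte list) at 214 FPKM with XY101 and 179 FPKM with vehicle, and CD68 (leukocyte list) at 47.2 FPKM with XY101 and 63.6 FPKM with vehicle. Their part in the results was not tested. Among 10894 genes with a mean of at least 1 FPKM, the median log2 ratio of XY101 to vehicle was 0.09. All log2 ratios of single genes add 0.1 FPKM to both values, which understates the difference of low genes.

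Together the clustered histone genes were higher in the XY101 library. Their FPKM values summed to 615 with XY101 and 337 with vehicle, a 1.82-fold difference and a log2 ratio of 0.87. The 95% exact binomial (Clopper-Pearson) interval of that log2 ratio was 0.76 to 0.94, and it covers counting error only, at the approximate depth above. Intervals were computed on summed fragments, in which long transcripts weigh more than in summed FPKM. As a share of all FPKM in the library, they made up 0.0738% with XY101 and 0.0393% with vehicle. Beside them, the replacement histones summed to 2143 FPKM with XY101 and 2094 FPKM with vehicle. The clustered genes thus gave 22.3% of the FPKM of both kinds of histone gene with XY101 and 13.9% with vehicle. Of the 61 genes, 48 were above 0 with XY101 and 43 with vehicle, and 7 were listed at 0 in both libraries.

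The 4 classes with substantial signal were all higher with XY101. H1 summed to 139 FPKM with XY101 and 77.9 FPKM with vehicle, 1.78-fold higher (log2 ratio 0.83, interval 0.69 to 0.98). H2A summed to 204 FPKM with XY101 and 104 FPKM with vehicle, 1.96-fold higher (log2 ratio 0.97, interval 0.81 to 1.16). Without H2AC18 and H2AC19, a pair of near-identical copies, the H2A log2 ratio was 0.79. H2B summed to 163 FPKM with XY101 and 94.1 FPKM with vehicle, 1.73-fold higher (log2 ratio 0.79, interval 0.53 to 0.90). H4 summed to 102 FPKM with XY101 and 56.9 FPKM with vehicle, 1.79-fold higher (log2 ratio 0.84, interval 0.48 to 1.23). Without the copies H4C11 and H4C12, the H4 log2 ratio was 1.13. The intervals of these 4 classes overlap, and an order among them was not tested. H3 stood apart by its low level, with 7.04 FPKM with XY101 and 4.33 FPKM with vehicle over its 12 genes. Its log2 ratio of 0.70 came from about 24.1 and 14.7 fragments, and its interval of -0.31 to 1.71 includes 0, so an H3 difference was not detectable at this depth.

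**Figure D1:**
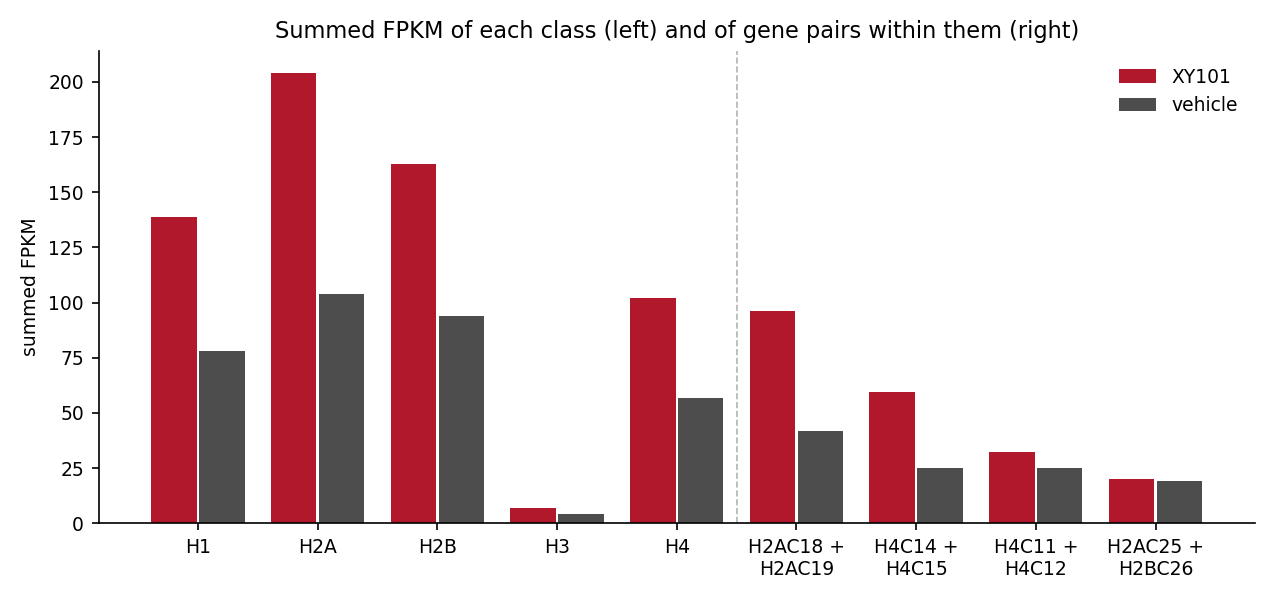
Summed FPKM (linear axis) of each histone class, left of the dashed line, and of 4 gene pairs within the classes, right of it, with 1 library per condition and no error bars. The XY101 bar is higher for every class, though barely visible for H3, and the H2AC25 and H2BC26 pair stands at 19.9 FPKM with XY101 and 19.2 FPKM with vehicle.

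A few genes carried most of the signal. The 11 members with the highest mean FPKM gave 553 FPKM with XY101 and 301 FPKM with vehicle, which is 89.9% and 89.2% of the sums. The other 50 members gave 62.2 FPKM with XY101 and 36.4 FPKM with vehicle, a log2 ratio of 0.77 (interval 0.34 to 0.90). The difference was thus present in the abundant members and in the summed remainder.

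Of the 61 genes, 26 had a mean of at least 1 FPKM. Of these 26, 10 were at least 2-fold higher with XY101, where 1.17% of all genes at that level were. At least 2-fold lower were 2 members, H2AC19 and H4C11, where 0.698% of all genes were, and both have a near-identical copy that was higher. A log2 ratio above 0 was found for 22 of the 26, and for 64.4% of all genes. H2AC11, H2AC17, H2BC17, H2BC18, H3C4 and H4C12, all among the 22, reached a mean of 1 FPKM only through the XY101 library. H2AC19 reached it only through the vehicle library. The count and the median that follows are therefore partly shaped by this filter. The median log2 ratio over the 26 was 0.81. With the copies H2AC18 and H2AC19, H4C11 and H4C12, and H4C14 and H4C15 each summed, 23 values remained, of which 8 were at least 2-fold higher and none was 2-fold lower. Their median was 0.78 and their lowest log2 ratio was -0.30. Among those at least 2-fold higher, H2AC17 and H3C4 reached a mean of 1 FPKM only through the XY101 library. The counting intervals of H3C4 and H4C8 included 0.

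**Figure D2:**
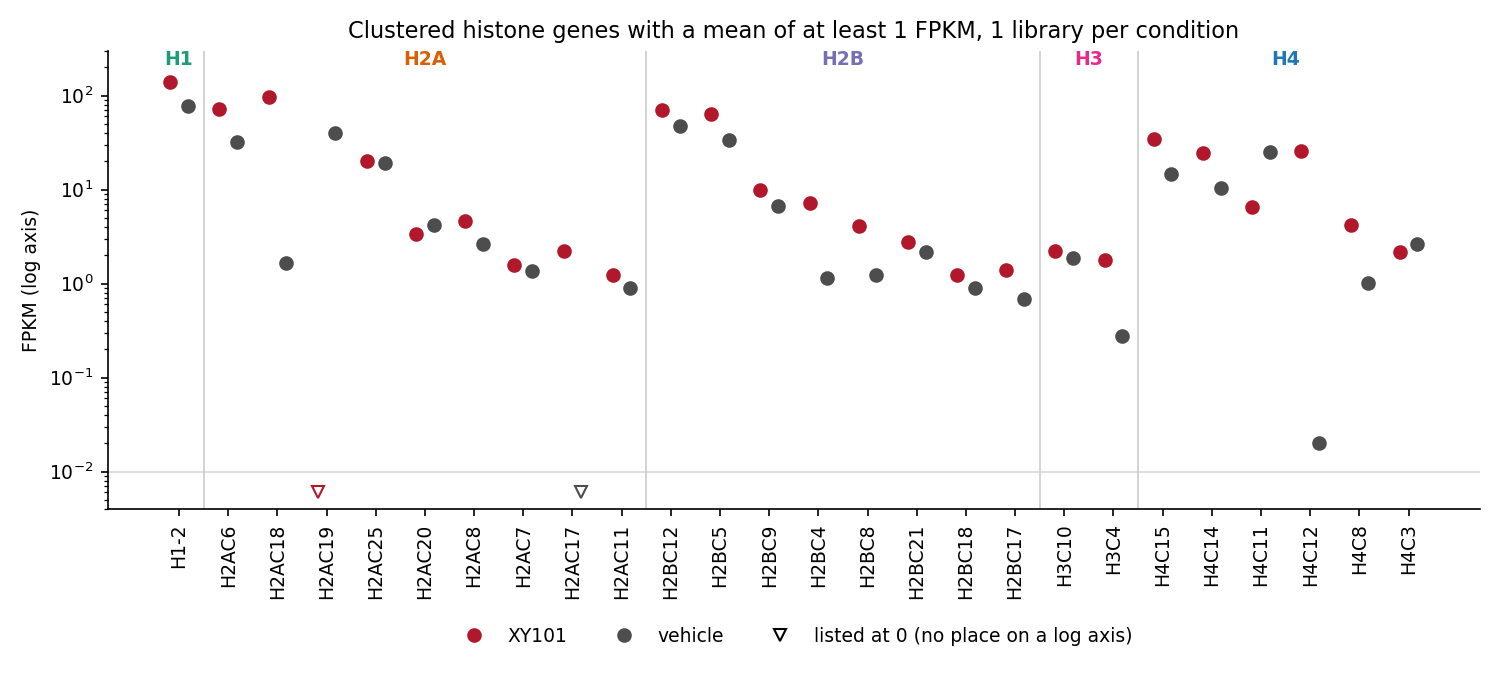
FPKM (log axis) of the 26 clustered histone genes with a mean of at least 1 FPKM, grouped by class, with the XY101 library left of the vehicle library for each gene. The XY101 point is the higher one for 22 of the 26 genes, and the open triangles mark H2AC19 with XY101 and H2AC17 with vehicle, which were listed at 0.

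**Figure D3:**
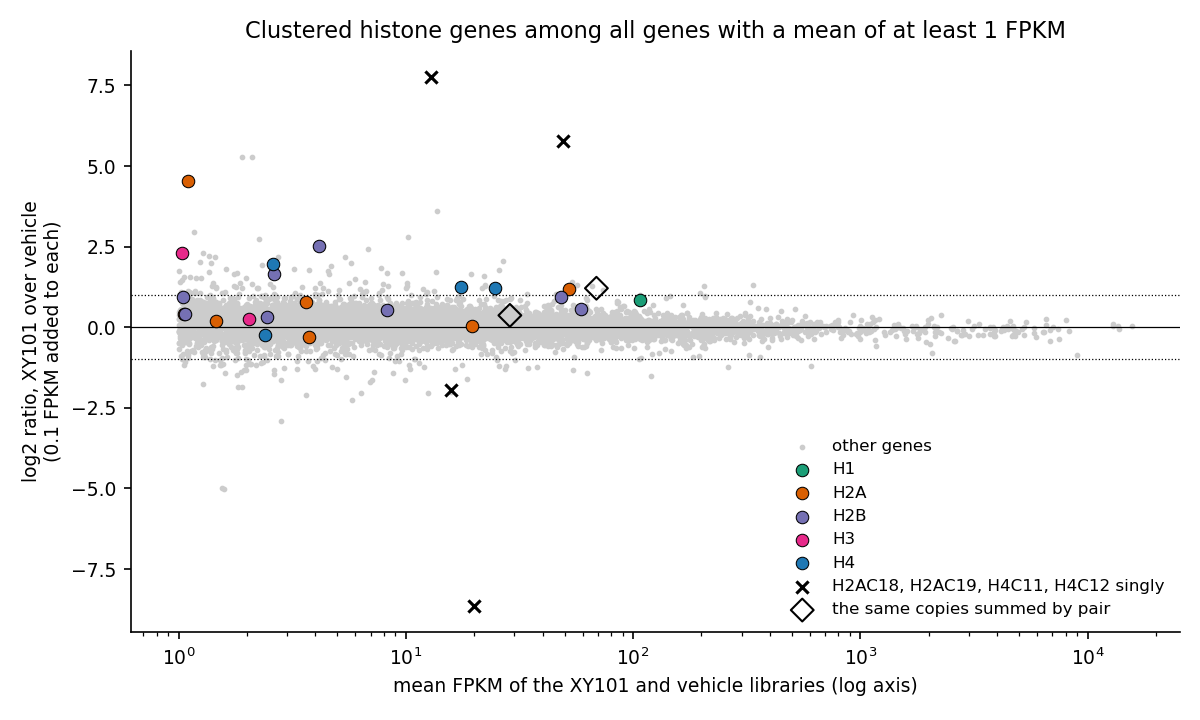
Log2 ratio of XY101 over vehicle against mean FPKM (log axis) for 10894 genes, with the histone genes coloured by class and dotted lines at 2-fold. The near-identical copies H2AC18, H2AC19, H4C11 and H4C12 lie at 5.78, -8.65, -1.93 and 7.76 when taken singly (crosses), and at 1.21 and 0.37 when summed by pair (diamonds).

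H1-2, which encodes linker histone H1.2, had the highest mean of all members. It had 138 FPKM with XY101 and 77.3 FPKM with vehicle, 1.79-fold higher (log2 ratio 0.84, interval 0.69 to 0.99). This is the best counted member, with about 1042 fragments with XY101 and 583 with vehicle, and its transcript had a single exact place on chromosome 6 and no 100-base stretch in common with another member. The other H1 genes, H1-3, H1-4 and H1-5, were at most 0.48 FPKM with XY101 and 0.46 FPKM with vehicle. The H1 sum was therefore almost wholly H1-2.

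Among the H2A genes, H2AC6 had 72.9 FPKM with XY101 and 32.1 FPKM with vehicle, 2.27-fold higher (log2 ratio 1.18, interval 0.87 to 1.5). Like H1-2 it shared no 100-base stretch with another member. H2AC18 had 96.3 FPKM with XY101 and 1.65 FPKM with vehicle, whereas H2AC19 was listed at 0 with XY101 and had 39.98 FPKM with vehicle. These are copies: the 534-base transcript of H2AC19 occurs at 2 exact places on chromosome 1 of GRCh37, so reads cannot tell the genes apart and only their sum is informative. Summed, the pair had 96.3 FPKM with XY101 and 41.6 FPKM with vehicle, 2.31-fold higher (log2 ratio 1.21, interval 0.95 to 1.48). H2AC25 had 19.9 FPKM with XY101 and 19.2 FPKM with vehicle, which is 1.04-fold (log2 ratio 0.05, interval -0.45 to 0.53). It was the only member above a mean of 10 FPKM, the copies summed, whose ratio was this close to 1. H2AC25 lies away from the other H2A genes of chromosome 1, beside H2BC26, which was listed at 0 in both libraries. The low H2A genes went both ways. H2AC8 had 4.61 FPKM with XY101 and 2.65 FPKM with vehicle, H2AC7 had 1.57 and 1.35 FPKM in the same order, and H2AC11 had 1.22 and 0.89 FPKM. H2AC20 had 3.35 FPKM with XY101 and 4.15 FPKM with vehicle, and H2AC17 had 2.21 FPKM with XY101 and was listed at 0 with vehicle. H2AC17 reached a mean of 1 FPKM through the XY101 library alone, and 63.7% of its 100-base stretches also occur in a transcript annotated to H3C12.

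Among the H2B genes, H2BC12 had 70.4 FPKM with XY101 and 47.3 FPKM with vehicle, 1.49-fold higher (log2 ratio 0.57, interval 0.28 to 0.87). H2BC5 had 63.2 FPKM with XY101 and 33.3 FPKM with vehicle, 1.90-fold higher (log2 ratio 0.92, interval 0.59 to 1.28). These genes gave most of the H2B sum, and both carry the stem-loop spelling with a final a in the loop, as printed above. H2AC21 and H3C8, listed at 0 in both libraries, carry the same spelling. H2BC4 had 7.17 FPKM with XY101 and 1.16 FPKM with vehicle, 6.18-fold higher, but on about 20.1 and 3.25 fragments (interval of the log2 ratio 0.98 to 5.13). H2BC8 had 4.06 FPKM with XY101 and 1.22 FPKM with vehicle, 3.33-fold higher (interval 0.01 to 3.77). For H2BC9, at 9.83 FPKM with XY101 and 6.71 FPKM with vehicle, the interval included 0. The same held for H2BC21 (2.74 FPKM with XY101 and 2.17 FPKM with vehicle), H2BC18 (1.23 and 0.90 FPKM in the same order) and H2BC17 (1.41 and 0.69 FPKM). Of the stretches of 100 bases in H2BC12, 22.5% also occur in H2BC12L, which was listed at 0 with XY101 and had 0.34 FPKM with vehicle. All 8 H2B genes at a mean of at least 1 FPKM had a ratio above 1, where 64.4% of all genes at that level did. Of these, H2BC18 and H2BC17 reached that mean only through the XY101 library.

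The H3 genes were sparse. H3C10 had 2.22 FPKM with XY101 and 1.85 FPKM with vehicle, and H3C4 had 1.78 FPKM with XY101 and 0.28 FPKM with vehicle. The H3C4 values stand for about 6.32 fragments and 0.995 fragments, and both intervals included 0. The other H3 genes were all below a mean of 1 FPKM.

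Among the H4 genes, which encode the same protein from many copies, H4C14 had 24.7 FPKM with XY101 and 10.3 FPKM with vehicle, and H4C15 had 34.6 FPKM with XY101 and 14.7 FPKM with vehicle. The shortest coding transcripts of H4C14 and H4C15 are identical in every 100-base stretch, so their separate levels reflect how reads were divided. As a pair they had 59.3 FPKM with XY101 and 25 FPKM with vehicle, 2.37-fold higher (log2 ratio 1.25, interval 0.72 to 1.81). H4C11 and H4C12 have the same coding sequence of 312 bases and share 90.7% and 91.3% of their 100-base stretches. H4C11 had 6.48 FPKM with XY101 and 25.03 FPKM with vehicle, whereas H4C12 had 25.9 FPKM with XY101 and 0.02 FPKM with vehicle, less than the 0.657 FPKM that a single fragment is worth. Summed, this pair had 32.3 FPKM with XY101 and 25.1 FPKM with vehicle (log2 ratio 0.37), with an interval of -0.31 to 0.97 that includes 0. H4C8 had 4.22 FPKM with XY101 and 1.01 FPKM with vehicle on about 8.05 and 1.93 fragments, and H4C3 had 2.18 FPKM with XY101 and 2.61 FPKM with vehicle. Of the H4 genes, then, the H4C14 and H4C15 pair gave the higher H4 sum with XY101, and the remaining differences were within counting error.

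The 35 members under a mean of 1 FPKM summed to 12.4 FPKM with XY101 and 8.77 FPKM with vehicle, with an interval of the log2 ratio from -0.17 to 1.33. They were at most 1.03 FPKM with XY101 and 0.99 FPKM with vehicle. Of these, 10 were above 0 in the XY101 library alone, 5 in the vehicle library alone, 13 in both and 7 in neither. At this depth a single fragment is worth about 0.3 FPKM for a typical member and more for the short H4 transcripts. Of the members' low values, 23 of 26 with XY101 and 22 of 23 with vehicle lay within 0.15 of a whole number of fragments. These values were among those from which the depth was estimated, so their spacing is no separate check of it. Exactly 1 fragment by that tolerance was behind 12 values with XY101 and 11 with vehicle. Single ratios among these genes are therefore differences of a few fragments.

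**Figure D4:**
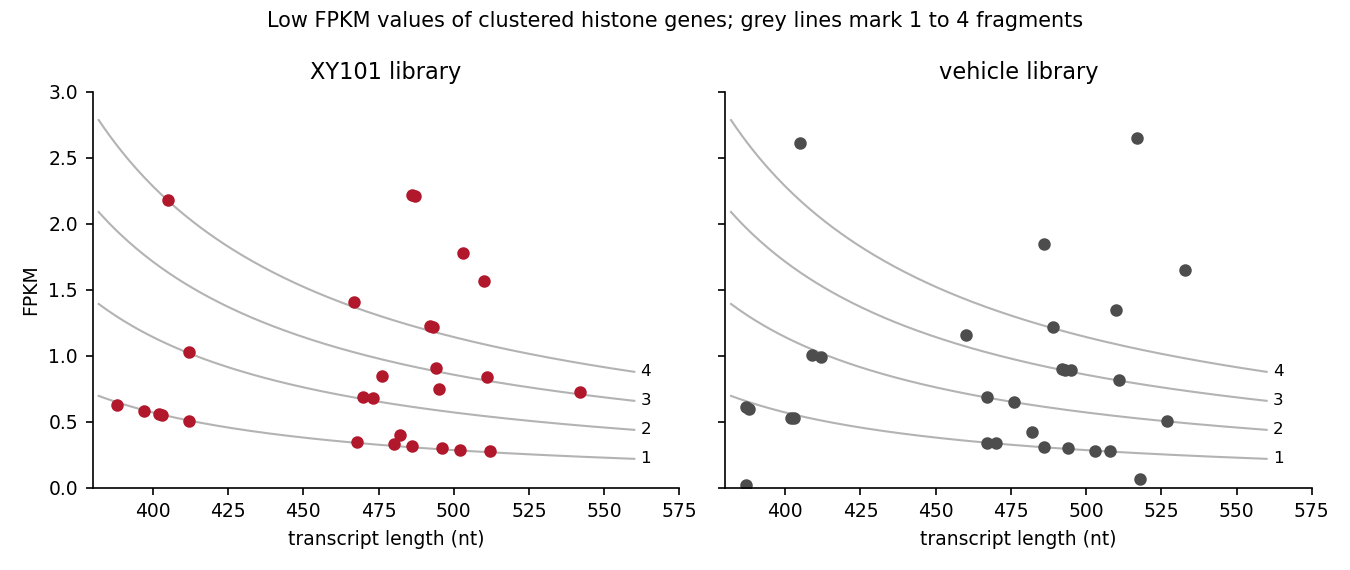
FPKM below 3 of short clustered histone genes against transcript length in nucleotides, for the XY101 library (left) and the vehicle library (right), with grey lines at 1 to 4 fragments. Most values under the line of 4 fragments lie on or near a line, and H4C12 with vehicle, at 0.02 FPKM, lies below the line of 1 fragment.

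By place, the 47 genes of chromosome 6 summed to 431 FPKM with XY101 and 244 FPKM with vehicle (log2 ratio 0.82, interval 0.74 to 0.95). The 10 genes of chromosome 1 other than H2AC25 and H2BC26 summed to 163 FPKM with XY101 and 73.9 FPKM with vehicle (log2 ratio 1.14, interval 0.78 to 1.19). H2A and H2B genes often lie head to head and share a promoter, and 11 pairs of members had divergent starts within 500 bases in RefSeq. In 8 of the 11 pairs both log2 ratios were above 0, in 1 pair they had opposite signs and in 2 pairs a partner was listed at 0 in both libraries. H2BC7 was counted in a pair with H2AC7 and again with H3C4, each with starts 223 bases apart. Of all genes at a mean of at least 1 FPKM, 64.4% had a log2 ratio above 0. Only 4 pairs had both partners at a mean of at least 1 FPKM, and the remaining pairs held at least 1 gene with a few fragments or none. In the pair H2AC6 and H2BC4, whose starts are 246 bases apart, both genes were higher with XY101 (72.9 and 7.17 FPKM with XY101, 32.1 and 1.16 FPKM with vehicle). In the pair H2AC8 and H2BC8 both were also higher (4.61 and 4.06 FPKM with XY101, 2.65 and 1.22 FPKM with vehicle). In the pair H2AC20 and H2BC21 the ratios were on opposite sides of 1 (3.35 and 2.74 FPKM with XY101, 4.15 and 2.17 FPKM with vehicle). Partners could differ widely in level, as H2AC6 and H2BC4 did and as H2AC25 did from H2BC26, or stand close to each other, as H2AC8 and H2BC8 did with XY101.

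Since the libraries were poly(A)-selected, the members were also split by annotated transcript form. In GENCODE or RefSeq, 19 members have a transcript that is spliced or longer than 1000 bases, and these summed to 309 FPKM with XY101 and 165 FPKM with vehicle, 1.87-fold higher. The 42 members annotated only as short single exons summed to 306 FPKM with XY101 and 172 FPKM with vehicle, 1.78-fold higher. Without the copies H2AC18, H2AC19, H4C11 and H4C12, the short form gave 178 FPKM with XY101 and 106 FPKM with vehicle, 1.68-fold higher. The difference was thus seen in both forms, and a difference between the forms was not tested. Other short genes, looked at after these values were seen, are given beside it. These were the 9 other genes with 1 RefSeq transcript, a gene span of 400 to 800 bases and a mean of at least 1 FPKM. Their median log2 ratio was -0.10. The neuropeptide gene NPB, 1 of the 9, was at least 2-fold higher (9.17 FPKM with XY101 and 4.16 FPKM with vehicle).

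Genes that work with histones differed far less, and none of those below at a mean of at least 1 FPKM was 2-fold higher or lower. Of 13 replacement histone genes at that level, the median log2 ratio was 0.06. H2AZ1, which encodes H2A.Z, had 703 FPKM with XY101 and 697 FPKM with vehicle. H2AX, whose mRNA can end in a stem-loop or a poly(A) tail, had 83.3 FPKM with XY101 and 62.8 FPKM with vehicle, and MACROH2A2, a macroH2A variant, had the highest ratio of this list with 7.63 FPKM with XY101 and 4.87 FPKM with vehicle (log2 ratio 0.64). At the other end H3-5 had 0.94 FPKM with XY101 and 1.5 FPKM with vehicle (log2 ratio -0.62).

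The 13 regulators of histone gene transcription had a median of 0.07. NPAT had 1.39 FPKM with XY101 and 1.40 FPKM with vehicle, and CASP8AP2, another protein of the histone locus body, had 0.43 FPKM with XY101 and 0.32 FPKM with vehicle. CCNE2, a cyclin that activates CDK2 at the start of S phase, was the highest of the list with 1.79 FPKM with XY101 and 1.15 FPKM with vehicle (log2 ratio 0.60). The 24 genes of histone mRNA processing and decay had a median of 0.11. SLBP had 29.4 FPKM with XY101 and 23.3 FPKM with vehicle (log2 ratio 0.33). The U7 snRNP proteins LSM10 and LSM11 had 31.4 and 1.41 FPKM with XY101, against 37.6 and 1.44 FPKM with vehicle. ZNF473, which binds that particle, had 3.08 FPKM with XY101 and 3.05 FPKM with vehicle, and ERI1, an exonuclease that trims the end of histone mRNAs, had 4.32 FPKM with XY101 and 5.04 FPKM with vehicle. TUT7, a uridylyltransferase that marks RNAs for decay, had the highest ratio here with 2.26 FPKM with XY101 and 1.46 FPKM with vehicle (log2 ratio 0.60). The 19 genes of the polyadenylation machinery had a median of 0.14, between PCF11 (3.42 FPKM with XY101 and 2.26 FPKM with vehicle) and CSTF3 (34.9 FPKM with XY101 and 45.6 FPKM with vehicle).

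Genes of the cell cycle are given beside the histone values, and their medians lay slightly above that of all genes. The 30 S phase genes had a median log2 ratio of 0.22, with PCNA, the replication clamp, at 178 FPKM with XY101 and 141 FPKM with vehicle. MCM10, a replication initiation factor, had 2.63 FPKM with XY101 and 1.69 FPKM with vehicle (log2 ratio 0.61), the highest of that list, and TIPIN, a fork protection factor, was the lowest with 3.47 FPKM with XY101 and 4.31 FPKM with vehicle. The 19 G2 and M phase genes had a median of 0.17, and the 23 histone chaperones a median of 0.20, led by ASF1A (5.00 FPKM with XY101 and 3.11 FPKM with vehicle). By contrast, the 20 cytosolic ribosomal protein genes had a median of -0.11. The part of the cell cycle in the higher histone values was not tested.

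**Figure D5:**
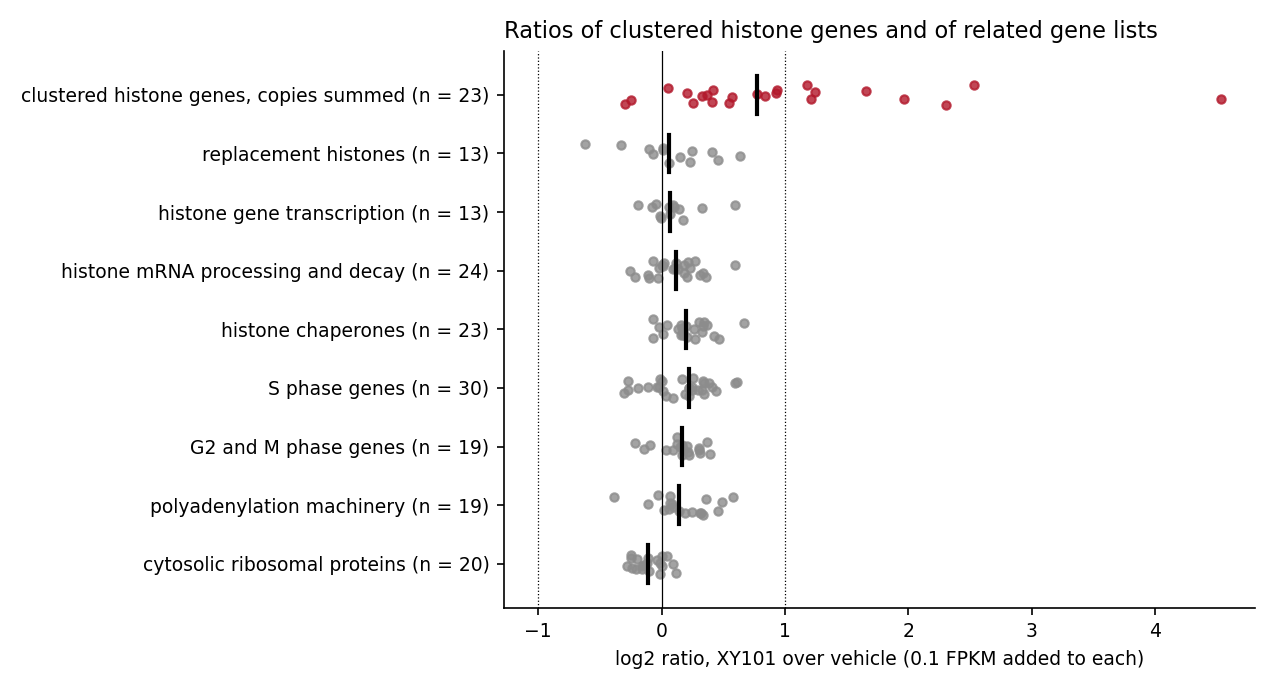
Log2 ratio of XY101 over vehicle for each clustered histone gene at a mean of at least 1 FPKM (top row, copies summed, 23 values) and for the genes of 8 related lists, with black bars at the medians and dotted lines at 2-fold. The histone median is 0.78, and the medians of the lists lie between -0.11 and 0.22.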

How the data were processed

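RNA of HUCCT-1 cells was sequenced from 1 XY101 library and 1 vehicle library. As deposited, the table gives other values than read counts: FPKM computed by the authors, with 2 decimals. The study's methods name BWA, Bowtie 2, RSEM and GRCh37, whereas the submitters' processing notes name HISAT2, HTSeq 0.11.2 and GRCh38. These accounts differ on how reads of near-identical genes are divided, so copies were also summed. The table has 17424 rows, and the 770 without a gene, which hold annotation text, were not used. The genes and lists were chosen with earlier results of these data known. All members with a mean of at least 1 FPKM were named, and of the related lists SLBP, NPAT, CASP8AP2, LSM10, LSM11, ZNF473, ERI1 and genes with the highest or lowest ratios. H2AZ1, H2AX, PCNA and NPB were named after their values were seen. A list of 22 RNAs without poly(A) tails had 0 members in the table and was not analysed here. Of the marker lists, 7 of 7 ductal epithelium genes, 1 hepatocyte gene (SERPINA1), 1 leukocyte gene (CD68), 2 fibroblast genes and 0 endothelium genes reached a mean of 1 FPKM.

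Single genes were given as log2((XY101 + 0.1)/(vehicle + 0.1)), and sums as a ratio of summed FPKM. No test was run. Where a gene has a single RefSeq transcript, its low FPKM values are steps of whole fragments. The RefSeq span of such a gene was taken as its transcript length. The lowest depth whose share of whole steps was at least 95% of the best share was taken, with a length offset of 300 bases, and 80% of 65 values with XY101 and 79.7% of 64 values with vehicle were then whole within 0.15. The depth is approximate. Fragments of genes with several transcripts were taken on the shortest coding one, which gives the fewest. Intervals (95%) cover only counting error. Scripts were first tested on simulated data. Sequences came from RefSeq (GRCh38.p14) and GENCODE release 44 (GRCh37). Alternatives concerned the copies, scaling, centring, pseudocount, filter and threshold. Scripts ran in Python 3.11.15 with numpy 2.4.6, scipy 1.17.1, pandas 2.3.3 and matplotlib 3.10.9.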

Additional observations from a re-analysis of the deposited data

How the results depend on the processing

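No paired analysis was possible because each condition had 1 library. Scaling both libraries to the same total, centring on the median gene, adding 0.1 FPKM to each member and leaving out H2BC12L (chosen after seeing the data) kept every class sum within its counting interval, with a log2 ratio for all members between 0.77 and 0.91. Without the copies, H2A alone left its interval, at 0.79. With no filter on mean FPKM, 21 of the 54 members above 0 in either library were at least 2-fold higher, and 6 were lower. At a mean of at least 5 FPKM, 5 members were at least 2-fold higher. The number of genes kept differs between filters, so counts of members and of all genes cannot be compared across them. Members with few fragments are added without the filter. Over all genes, 69 were higher and 41 lower with a pseudocount of 1 FPKM, 406 and 265 with no filter, 53 and 34 at a mean of at least 5 FPKM, 534 and 253 at a threshold of 1.5-fold, and 96 and 95 when centred, against 127 and 76. The members stayed at 10 higher and 2 lower when centred. Their median log2 ratio lay between 0.56 and 0.88 over its alternatives. Setting values listed at 0 to 3 fragments, also chosen after seeing the data, left it at 0.81. Only H2AC19 and H2AC17 held such values, and each stayed on its side of the median, so the median could not move. A pseudocount added to both values cannot change the sign of a ratio, only its size. The log2 ratio of H2AC17 was 7.79 with a pseudocount of 0.01 FPKM and 1.68 with 1 FPKM, against 4.53. With 1 library per condition these counts carry no replicate error, and low members rest on a few fragments.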
